A study of Mus musculus with 6 samples.

Results

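The proteasome genes were the 48 genes whose array row carried exactly 1 gene symbol beginning with Psm, a letter from a to g and a digit, pseudogenes left out, among 21506 genes measured in mouse left ventricle. They were represented by 49 rows, and for Psmc2, which had 2 rows, the row with the higher mean over the 6 arrays was used. Of the 48, 46 encode subunits, regulators or assembly factors of the proteasome. The other 2 match by name and were set apart here: Psmc3ip, which acts in meiotic recombination, and Psme3ip1, a partner protein of Psme3. Rows for Psma4 carried a second symbol as well, and Psma4, Psme2 and Psme2b were not analysed here.

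Total RNA of the left ventricle of 6 male mice was measured on 6 Affymetrix Mouse Gene 2.0 ST arrays, 3 from sickle mice and 3 from control mice, to examine gene expression in the heart of sickle cell disease. Sickle mice were homozygous for a human sickle globin allele at the mouse beta-globin locus, Hbbtm2(HBG1,HBB*)Tow, and carried the human alpha-globin allele Hbatm1(HBA)Tow. Control mice were homozygous for the non-sickling human allele Hbbtm3(HBG1,HBB)Tow and for Hbatm1(HBA)Tow. Both groups thus made human globins, both had a mixed B6;129 background, and all animals were studied at 10 to 14 weeks of age. No animals with mouse globins were among the samples. The knock-in alleles act in red cells, so that a difference in ventricle compares whole tissue, blood included.

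The proteasome is the barrel-shaped protease that degrades proteins tagged with ubiquitin. Its core is built of rings of alpha subunits, which form the gate, around rings of beta subunits, of which Psmb5, Psmb6 and Psmb7 cut peptide bonds. A regulatory particle of ATPases and other subunits binds ubiquitin chains, unfolds the substrate and feeds it into the core, while other caps, the activators, open the gate without using ubiquitin. In immune cells, and in other cells exposed to interferon-gamma, the catalytic subunits Psmb8, Psmb9 and Psmb10 replace the constitutive ones to form the immunoproteasome, whose peptides are loaded on MHC class I molecules. In heart muscle the proteasome removes damaged and surplus contractile proteins.

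Promoter windows from 250 bases before to 50 bases after the annotated start were matched by gene number in RefSeq (build GRCm38.p6) for 40 of the 48 genes. Shown 5′ to 3′ are those of Psme3, the gene with the largest difference between groups, Psmg1, the proteasome assembly gene with the largest difference in the other direction, and Psmb9 and Psmb8, immunoproteasome genes. Capitals mark a match to any of 4 motifs searched on both strands: the antioxidant response element TGACNNNGC, the interferon-stimulated response element GAAANNGAAA, the gamma-activated site TTCNNNGAA and the CCAAT box CCAAT. The windows are chr11:101315963-101316262 on the plus strand, chr16:95990911-95991210 on the minus strand, chr17:34187281-34187580 on the minus strand and chr17:34197945-34198244 on the plus strand.
Psme3: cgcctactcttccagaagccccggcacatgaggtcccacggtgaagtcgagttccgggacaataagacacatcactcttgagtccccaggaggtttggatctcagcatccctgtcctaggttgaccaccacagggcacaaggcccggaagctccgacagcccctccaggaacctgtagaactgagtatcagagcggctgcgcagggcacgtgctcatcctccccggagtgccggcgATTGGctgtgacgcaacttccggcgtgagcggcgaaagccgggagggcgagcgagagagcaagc
Psmg1: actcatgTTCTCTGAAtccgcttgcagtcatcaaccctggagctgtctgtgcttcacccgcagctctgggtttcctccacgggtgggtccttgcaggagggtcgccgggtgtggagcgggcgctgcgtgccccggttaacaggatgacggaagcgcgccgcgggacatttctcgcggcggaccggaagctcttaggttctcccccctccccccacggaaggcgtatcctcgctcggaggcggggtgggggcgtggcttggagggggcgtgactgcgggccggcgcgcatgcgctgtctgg
Psmb9: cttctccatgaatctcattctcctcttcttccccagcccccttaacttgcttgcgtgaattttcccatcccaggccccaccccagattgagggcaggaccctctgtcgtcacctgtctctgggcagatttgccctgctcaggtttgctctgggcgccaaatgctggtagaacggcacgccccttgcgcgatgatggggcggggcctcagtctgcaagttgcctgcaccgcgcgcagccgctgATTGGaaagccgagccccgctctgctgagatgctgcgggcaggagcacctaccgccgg
Psmb8: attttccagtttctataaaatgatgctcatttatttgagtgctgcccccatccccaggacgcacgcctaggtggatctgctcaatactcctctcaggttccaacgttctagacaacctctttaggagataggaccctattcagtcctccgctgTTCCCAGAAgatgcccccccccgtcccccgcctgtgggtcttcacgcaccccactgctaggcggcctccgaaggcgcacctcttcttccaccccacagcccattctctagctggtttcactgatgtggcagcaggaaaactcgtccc
The Psme3 and Psmb9 windows each held 1 CCAAT box in reverse orientation, beginning 14 and 8 bases before the start. The Psmg1 and Psmb8 windows each held 1 gamma-activated site, beginning 243 and 97 bases before the start. Over the 43 windows of the 40 genes, the antioxidant response element was present in 6 (14.0%), against 12.4% of all 32851 promoter windows. The CCAAT box was present in 16 (37.2%), against 37.4% of all windows, and the gamma-activated site in 3 (6.98%), against 8.30%. The interferon-stimulated response element was present in 5 windows (11.6%), those of Psmb3, Psmd4, Psmd9, Psme1 and Psmg4, against 3.44% of all windows. These are matches of letters, not measured binding.

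The values were the authors' log2 expression values, on which a difference of 1 is a doubling. Array medians lay between 5.50 and 5.54. Sickle replicate 3 stood apart, with a score of 43.27 on the first principal component of all genes (43.9% of the variance), against scores from -15.07 to -2.31 in the other arrays. In that array 375 of 21506 genes were over 2-fold away from the mean of its group mates. Of the 48 proteasome genes 0 were, and the largest such gap among them was 0.52. With so small a share over all genes, a count of 0 among 48 does not set them apart. Sickle replicate 3 held the lowest sickle value of 27 of the 48, against 41.3% of all genes. The 10 cardiomyocyte markers, among them the alpha myosin gene Myh6 (13.16 to 13.25 in sickle and 13.17 to 13.28 in control ventricles), read between 8.57 and 13.62 on every array. None passed limma after adjustment, where 0.181% of all genes did, and 0 had an unadjusted p under 0.05, where 8.69% of all genes did. The median difference of the 10 markers was -0.04. Summed after undoing the logarithm, these markers reached 71620 to 79219 units in sickle and 76729 to 77721 units in control arrays.

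The proteasome genes differed little between sickle and control ventricle. Over all 48, the median difference, sickle minus control, was -0.04 on the log2 scale, against -0.0067 over all genes tested, and single genes ranged from -0.23 for Psma8 to 0.39 for Psme3. With limma and Benjamini-Hochberg adjustment over all 21506 genes, 0 of 48 passed an adjusted p of 0.05, where 0.181% of all genes did. The adjusted p lay between 0.410 and 0.998. At an unadjusted p under 0.05 there was 1 gene, Psme3 (2.08%), where 8.69% of all genes reached that level. The difference was below 0 for 33 of the 48 (68.8%) and for 51.6% of all genes, and for 28 of the 48 without sickle replicate 3. The 3 sickle values lay wholly above the 3 control values for 2 genes (4.17%, against 7.61% of all genes) and wholly below them for 7 (14.6%, against 8.36%).

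The arrays bounded most of these differences narrowly. The 95% interval of the difference lay inside a 1.5-fold change in either direction for 46 of 48 proteasome genes (95.8%), against 79.7% of all genes, and the exceptions were Psme3 and Psma8. It lay inside a 1.25-fold change for 29 of 48 (60.4%), against 24.5% of all genes. The standard error of a difference had a median of 0.10 over the proteasome genes and 0.12 over all genes. Of the 48, 44 lay at or above the median gene mean, and the shares among genes of like level were not counted. The intervals are unadjusted, and with 3 arrays a group a change of any size inside a gene's interval is not excluded.

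**Figure D1:**
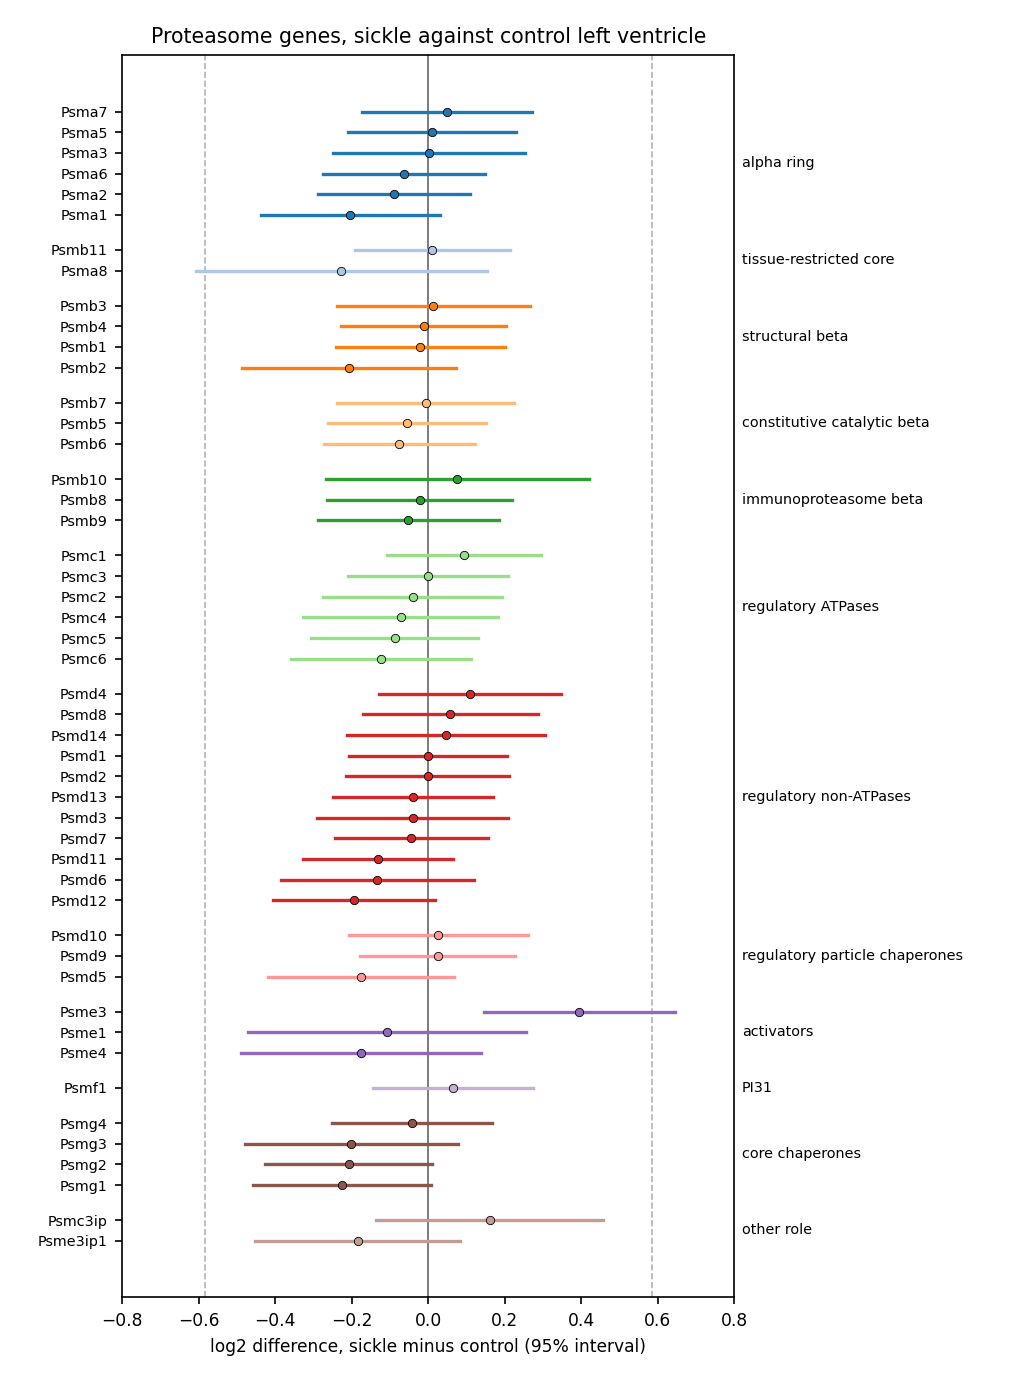
Log2 difference, sickle minus control, of the 48 proteasome genes (points) with the 95% interval from limma (lines), grouped by role; dashed lines mark a 1.5-fold change either way, and PI31 is the protein of Psmf1. Psme3 is the 1 gene whose interval, 0.14 to 0.64, leaves out 0.

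Among the alpha-ring subunits, which shape the gate of the core, 3 of 6 measured had a positive and 3 a negative difference, with a median of -0.03. Psma1 had 9.04, 9.07 and 8.85 in sickle ventricles, against 9.26, 9.13 and 9.18 in control ventricles. Every sickle value lay below every control value, by a difference of -0.20 ± 0.10 (SE), which did not pass (limma adjusted p = 0.606). Psma2 also had no overlap, with 9.11, 9.12 and 9.16 in sickle and 9.26, 9.22 and 9.18 in control ventricles, at a difference of -0.09 (95% interval -0.29 to 0.11, limma adjusted p = 0.775). At the other end, Psma7 had 9.48, 9.27 and 9.32 in sickle and 9.32, 9.30 and 9.31 in control ventricles, a difference of 0.05 with groups that overlapped. Psma3, Psma5 and Psma6 lay between these, from -0.06 to 0.01. The row of Psma5 read between 4.07 and 4.25 on all arrays, and a row this dim may understate a change.

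Psma8 is known as an alpha subunit of the testis and Psmb11 as a beta subunit of the thymus. Psma8 had 5.31, 4.81 and 4.85 in sickle, against 5.08, 5.13 and 5.43 in control ventricles, overlapping, with the widest interval of the 48 genes (-0.61 to 0.15). Psmb11 lay between 4.61 and 4.72 in all 6 arrays, a difference of 0.01. The deposited values carry no detection calls, so that presence of these RNAs cannot be read from the values.

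The structural beta subunits Psmb1, Psmb2, Psmb3 and Psmb4, which carry no active site, had a median difference of -0.02. Psmb2 had 8.63, 8.31 and 8.31 in sickle, against 8.72, 8.63 and 8.52 in control ventricles. Sickle replicate 1 was inside the control range and the other sickle arrays were below it, with a difference of -0.21 ± 0.12 (limma adjusted p = 0.652). Psmb3 differed by 0.01, and the intervals of Psmb1, Psmb3 and Psmb4 all lay between -0.24 and 0.27.

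The constitutive catalytic subunits differed by at most 0.08 in size. Psmb5, which carries the chymotrypsin-like activity, had 8.31, 8.21 and 8.17 in sickle and 8.29, 8.26 and 8.30 in control ventricles, a difference of -0.06 (95% interval -0.26 to 0.15). Psmb6, with the caspase-like activity, had 8.87, 8.84 and 8.92 in sickle and 8.96, 8.96 and 8.93 in control ventricles. The Psmb6 groups did not overlap, but the gap was small, with a difference of -0.08 (95% interval -0.27 to 0.12, limma adjusted p = 0.810). Psmb7, with the trypsin-like activity, had 10.19, 10.02 and 9.96 in sickle and 10.11, 10.09 and 9.99 in control ventricles, which overlapped (95% interval of the difference -0.24 to 0.22).

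The immunoproteasome subunits that take their places also differed by less than the arrays of a group spread. Psmb8 had 7.08, 7.05 and 7.29 in sickle and 7.21, 7.20 and 7.07 in control ventricles, a difference of -0.02 (95% interval -0.26 to 0.22). Psmb9 had 6.09, 6.12 and 6.18 in sickle and 6.30, 6.20 and 6.04 in control ventricles, a difference of -0.05 (95% interval -0.29 to 0.18). Both overlapped between groups. Psmb10 had 8.50, 8.70 and 8.66 in sickle and 8.82, 8.55 and 8.27 in control ventricles, with a difference of 0.08 and a wider interval (-0.27 to 0.42), since the control arrays alone spanned the range from 8.27 to 8.82.

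The balance between the 2 kinds of catalytic subunit was compared within each array as the log2 value of the immunoproteasome subunit minus that of the subunit it replaces. For Psmb8 and Psmb5 this log2 ratio was -1.09 ± 0.18 in sickle and -1.12 ± 0.09 in control ventricles (SD, n = 3 each), a difference of 0.03 (exact two-sided permutation p = 0.9). For Psmb9 and Psmb6 it was -2.75 ± 0.03 in sickle and -2.77 ± 0.12 in control ventricles, a difference of 0.02 (exact permutation p = 0.8). For Psmb10 and Psmb7 it was -1.43 ± 0.21 in sickle and -1.52 ± 0.22 in control ventricles, a difference of 0.08 (exact permutation p = 0.7). With 3 against 3 arrays the smallest p this test can give is 0.1, and all 3 ratios had a Benjamini-Hochberg value of 0.9. The absolute ratios depend on each row's probes, so only their difference between groups can be read, and its sign turned for all 3 when control replicate 3 was left out (-0.02 for Psmb8, -0.04 for Psmb9 and -0.02 for Psmb10), and for Psmb8 also without sickle replicate 3 (-0.07).

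The immunoproteasome subunits were also set beside the MHC class I genes array by array. Psmb9 and Psmb8 lie beside the peptide transporter genes Tap1 and Tap2 in the order Psmb9, Tap1, Psmb8, Tap2 on mouse chromosome 17. All 3 immunoproteasome subunits were lowest in replicate 3 among the control arrays, and so were 10 of 11 peptide-loading and MHC class I genes. Among the sickle arrays, 2 of the 3 subunits and 8 of these 11 genes were highest in replicate 3. Control replicate 3 was also the lowest control array for all 3 activators, 16 of 22 interferon genes, 22 of the 48 proteasome genes and 34.8% of all genes. Sickle replicate 3, in which the macrophage and monocyte markers had a median of 1.33 above control, was the highest sickle array for 11 of the 22 interferon genes, 9 of the 48 proteasome genes and 35.2% of all genes, and the part of those cells was not tested. These counts describe 6 arrays and carry no test. Tap1 had 6.95, 6.96 and 7.23 in sickle and 7.32, 7.18 and 7.00 in control ventricles, a difference of -0.12 ± 0.13. The other members with the smallest p were H2-Q4, an MHC class I gene (-0.20 ± 0.15), B2m, the class I light chain (-0.14 ± 0.14), and Tap2 (-0.09 ± 0.12). With any 1 array left out, the difference ranged from -0.21 to -0.05 for Tap1, from -0.36 to -0.10 for H2-Q4, from -0.25 to -0.04 for B2m and from -0.18 to -0.02 for Tap2. None of the 11 genes passed the adjustment or an unadjusted p of 0.05, where 0.181% and 8.69% of all genes did. The median difference of the 11 was -0.08.

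**Figure D2:**
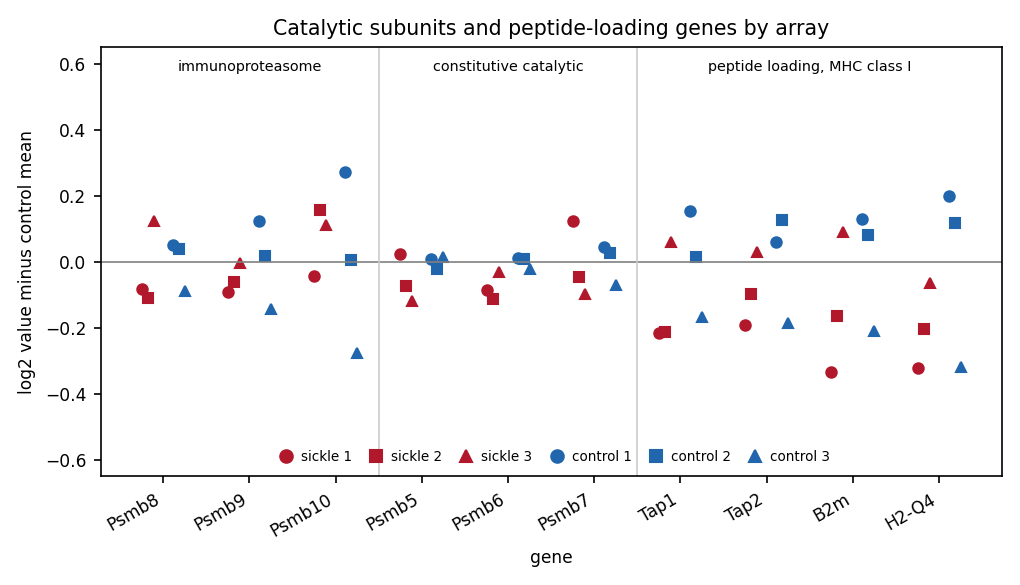
Log2 value minus the gene's control mean on each array (y axis) for immunoproteasome, constitutive catalytic and peptide-loading genes (x axis), with sickle arrays in red and control arrays in blue and the replicate shown by shape. The groups overlap for every gene drawn except Psmb6, and control replicate 3 (blue triangle) is the lowest control array for all 3 immunoproteasome genes and for Tap1, Tap2, B2m and H2-Q4.

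Interferon genes, which include known inducers and companions of the immunoproteasome, did not move as one. Of 22 measured, 1 rose, Rsad2, an antiviral enzyme induced by type I interferon (9.79, 10.04 and 10.15 in sickle, against 8.06, 7.82 and 7.80 in control ventricles, limma adjusted p = 0.00274). Over all genes, 0.181% passed the adjustment. At an unadjusted p under 0.05, 3 of the 22 were higher and 4 lower, where 4.30% and 4.38% of all genes were. Irf1, a transcription factor that drives immunoproteasome genes, differed by 0.03 ± 0.10 with overlapping groups. The median of the 22 genes was -0.07. The other genes higher at that level were Isg15, a ubiquitin-like modifier (1.13 ± 0.24, limma adjusted p = 0.270), and Irf8, a transcription factor of immune cells (0.45 ± 0.16, limma adjusted p = 0.522). The lower ones were the interferon-inducible GTPases Iigp1 (-0.74 ± 0.21), Irgm2 (-0.64 ± 0.17) and Igtp (-0.42 ± 0.12) and the chemokine Cxcl9 (-0.48 ± 0.19), with limma adjusted p between 0.408 and 0.564. The groups did not overlap for the 3 GTPases and overlapped for Cxcl9. With 1 array left out, Cxcl9 ranged from -0.66 to -0.33.

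Of the regulatory particle, the ATPases had a median difference of -0.06 with 5 of 6 below 0, against 51.6% of all genes. Psmc1, an ATPase whose tail helps to open the gate of the core, had 8.89, 8.92 and 8.86 in sickle and 8.76, 8.85 and 8.78 in control ventricles. These groups did not overlap, though the lowest sickle value and the highest control value were almost equal, and the difference of 0.09 ± 0.09 did not pass (limma adjusted p = 0.772). Psmc6 had 9.57, 9.66 and 9.48 in sickle and 9.72, 9.57 and 9.78 in control ventricles, an overlapping difference of -0.12. All 6 ATPases were lowest in sickle replicate 3 among the sickle arrays, as were 41.3% of all genes. Set against the control mean, the ATPase median stood at 0.05, -0.02 and -0.16 in sickle arrays 1, 2 and 3. In the same 3 arrays the median of 10 cardiomyocyte markers was 0.07, 0.01 and -0.13, that of 8 fibroblast markers 0.03, 0.15 and 1.71, and that of 12 macrophage and monocyte markers 0.02, 0.09 and 1.33. The part of these cells in the ATPase values was not tested, and in whole tissue fewer cells of a type and less RNA per cell cannot be told apart. For Psmc2, the dimmer of its 2 rows had a difference of -0.12 and the row used here -0.04.

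The 11 non-ATPase subunits of the regulatory particle had a median difference of -0.04, with 8 below 0, against 51.6% of all genes. Sickle replicate 3 was the lowest sickle array for 8 of them, against 41.3% of all genes, and without it the class median was -0.0048. Psmd12, of the lid that holds the deubiquitinating enzyme, had 9.78, 9.83 and 9.67 in sickle, against 9.92, 9.94 and 10.01 in control ventricles. All sickle values were lower, by a difference of -0.20 ± 0.09 (limma adjusted p = 0.596). Psmd11, another lid subunit, had 9.56, 9.56 and 9.60 in sickle, against 9.69, 9.73 and 9.70 in control ventricles. Its groups were tight and apart, but the difference of -0.13 was small and did not pass (95% interval -0.33 to 0.06, limma adjusted p = 0.672). Psmd4, a ubiquitin receptor, had the highest difference of the class, 0.11 ± 0.10, with 8.13, 8.29 and 8.29 in sickle and 8.16, 8.22 and 8.01 in control ventricles, which overlapped. Psmd14, the deubiquitinating enzyme itself, differed by 0.05, and the scaffold subunits Psmd1 and Psmd2 had intervals from -0.21 to 0.20 and from -0.21 to 0.21.

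The chaperones that assemble the base of the regulatory particle were mixed. Psmd5 had 8.19, 8.01 and 8.27 in sickle, against 8.35, 8.25 and 8.39 in control ventricles, a difference of -0.18 ± 0.10 with groups that overlapped slightly (limma adjusted p = 0.654). Psmd10, known as gankyrin, differed by 0.03 and Psmd9 by 0.02.

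The 4 chaperones that assemble the core had the lowest median of the 9 classes with 3 or more genes, -0.21. All 4 differences were below 0, as were 51.6% of those over all genes. Psmg1 and Psmg2 form a pair that gathers alpha subunits into a ring. Psmg1 had 7.20, 7.31 and 7.10 in sickle, against 7.51, 7.34 and 7.44 in control ventricles. Psmg2 had 8.10, 8.05 and 8.0 in sickle, against 8.31, 8.32 and 8.15 in control ventricles. Neither overlapped between groups, with differences of -0.23 ± 0.10 and -0.21 ± 0.09, and neither passed (limma adjusted p = 0.585 and 0.588). The second pair was less even: Psmg3 differed by -0.20 ± 0.12 with overlap, and Psmg4 by -0.04 ± 0.09. Set against the control mean, the median of the 4 genes stood at -0.16, -0.08 and -0.29 in sickle arrays 1, 2 and 3. Without sickle replicate 3 the differences were -0.18 for Psmg1, -0.18 for Psmg2, -0.10 for Psmg3 and -0.05 for Psmg4.

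**Figure D3:**
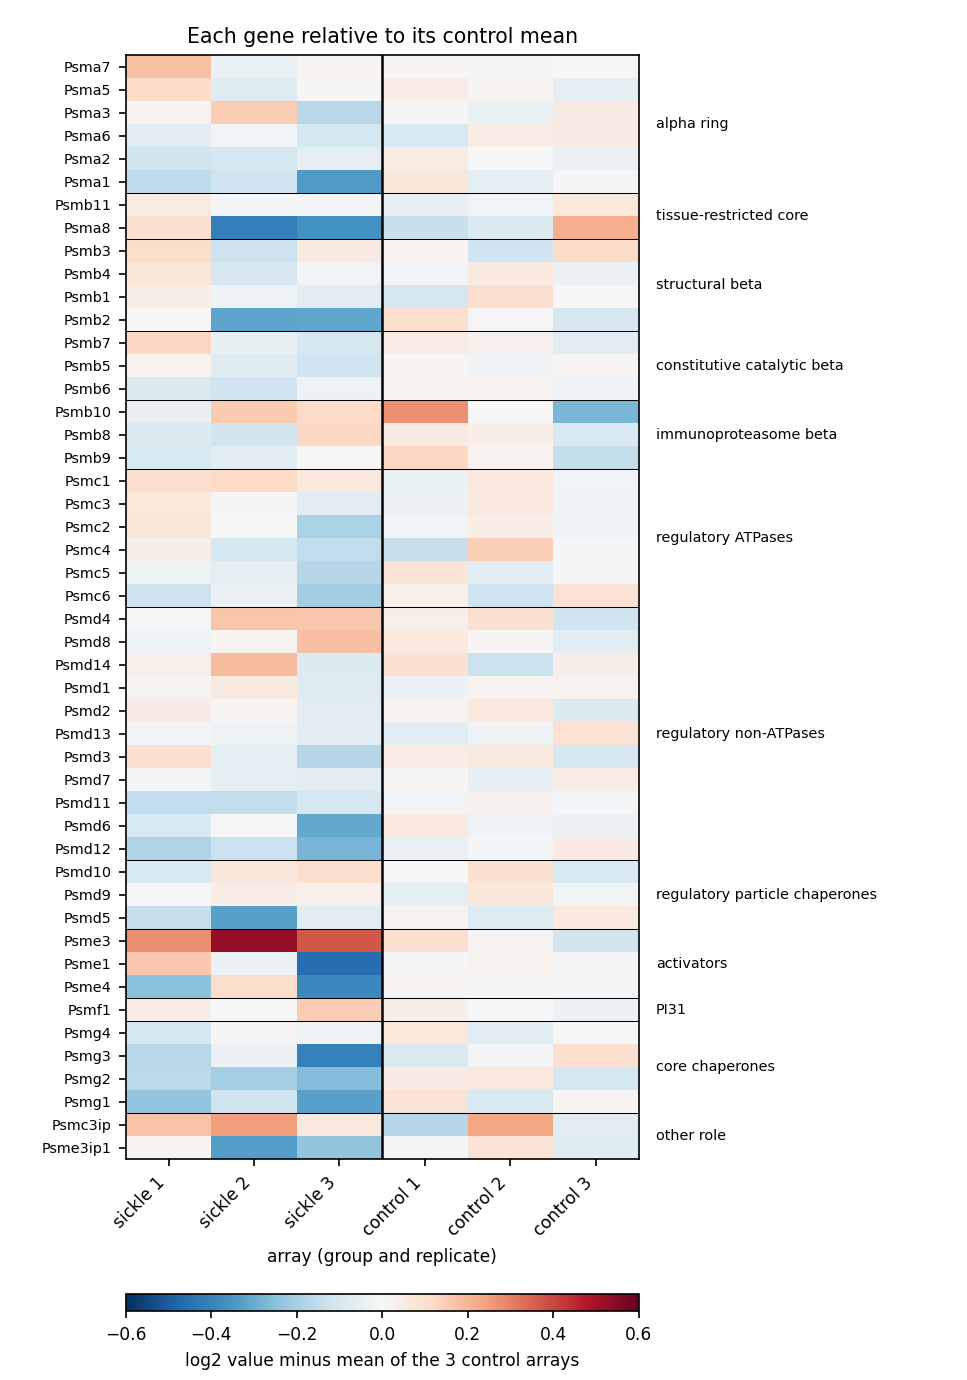
Log2 value of each of the 48 proteasome genes minus the mean of its 3 control arrays (colour), by array (columns, sickle left of control) and by role (rows). Psme3 is above its control mean in all 3 sickle arrays, and Psmg1 and Psmg2 are below theirs in all 3. Sickle replicate 3 holds the lowest sickle value of 27 of the 48 genes, against 41.3% of all genes.

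The activators, which cap the core in place of the regulatory particle, went in different directions. Psme3, the nuclear activator also called REG gamma, which lets the core degrade some regulatory proteins without ubiquitin, had 8.36, 8.60 and 8.45 in sickle, against 8.17, 8.09 and 7.97 in control ventricles. Every sickle value was above every control value, at means of 8.47 ± 0.13 in sickle and 8.08 ± 0.10 in control (SD, n = 3 each), a 1.31-fold higher level in sickle. The difference was 0.39 ± 0.11 (95% interval 0.14 to 0.64). It had an unadjusted limma p of 0.00686 and did not pass the adjustment over all genes (adjusted p = 0.410). With any 1 array left out, the difference lay between 0.33 and 0.45, and it was 0.40 without sickle replicate 3. In these fits the unadjusted limma p lay between 0.00771 and 0.0291, while the adjusted p stayed between 0.407 and 0.773.

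Psme1, a subunit of the interferon-inducible activator, had 10.02, 9.82 and 9.41 in sickle and 9.85, 9.88 and 9.85 in control ventricles. The control arrays were nearly equal and the sickle arrays lay on both sides of them, with a difference of -0.11 ± 0.16 that was 0.06 without sickle replicate 3. Psme4, the large single-chain activator, had 10.54, 10.89 and 10.40 in sickle and 10.80, 10.78 and 10.78 in control ventricles, a difference of -0.18 ± 0.13 (limma adjusted p = 0.721). It too was spread over both sides of control in sickle, and the difference was -0.07 without sickle replicate 3. The SD between sickle arrays was 0.32 for Psme1 and 0.25 for Psme4, against 0.017 and 0.016 between control arrays. Psmf1, named for inhibiting the core, differed by 0.06 with overlapping groups.

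Markers of blood cells also had mostly positive differences. Of 15 reticulocyte and red-cell markers measured, 14 had a positive difference, where 51.6% of all genes had a negative one. After adjustment 6 of the 15 rose, where 0.181% of all genes passed, and the median of these markers was 0.73. Summed after undoing the logarithm, they reached 6044 to 8220 units in sickle and 2834 to 3395 units in control arrays. Lymphocyte markers also had positive differences in 10 of 10 genes, and 1 of them, Cd79a, rose after adjustment (limma adjusted p = 0.0484). The summed levels of the lymphocyte markers were 533 to 693 units in sickle and 349 to 377 units in control arrays. Ptprc was the brightest of them and weighs most in these sums, with 7.56, 7.51 and 8.33 in sickle arrays 1, 2 and 3. The other lymphocyte rows read between 3.85 and 6.39, and rows this dim may understate a change. Median differences were 0.17 over 7 neutrophil markers, 0.10 over 7 endothelial markers and 0.24 over 7 smooth muscle and pericyte markers. The neutrophil rows read between 2.90 and 4.92, below every array median (5.50 to 5.54), and 2 of the 7 differences were below 0. So small a difference in rows this dim cannot be read as more neutrophil RNA. The part of any of these cells in the Psme3 difference was not tested.

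**Figure D4:**
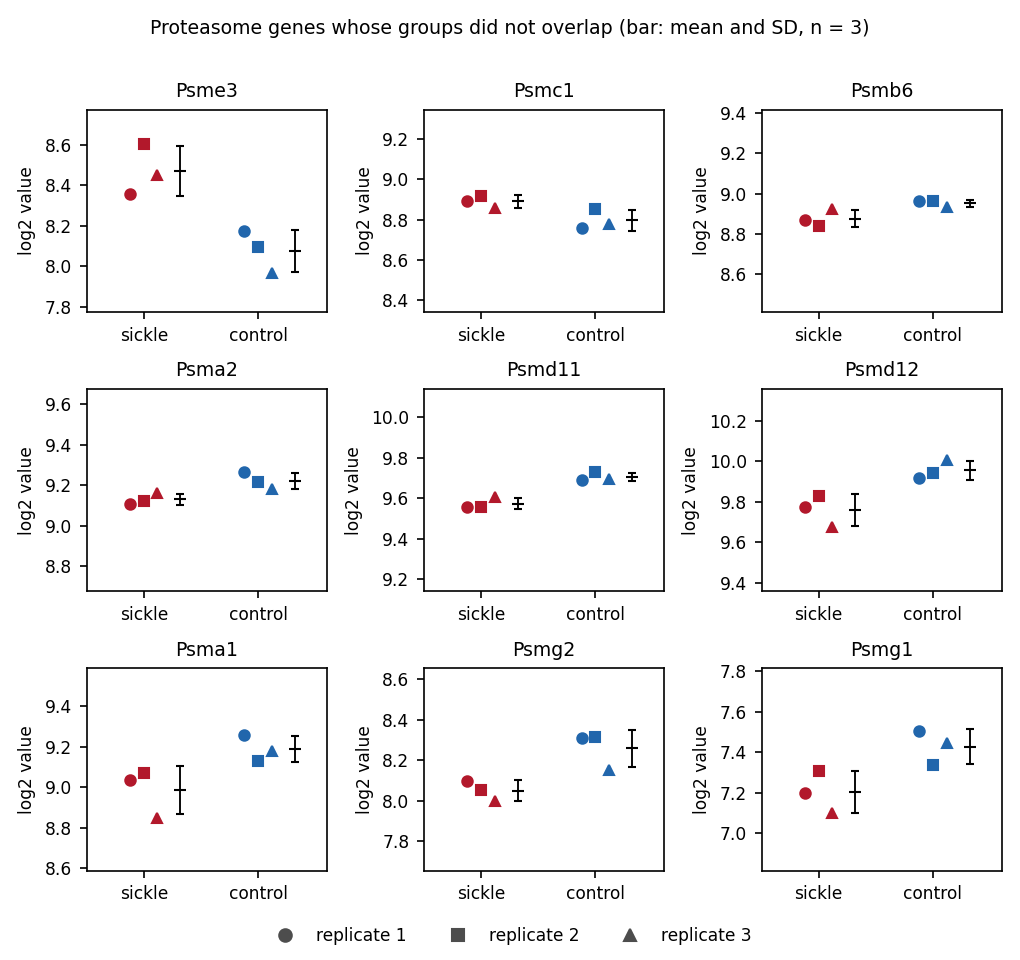
Log2 values by array (points, shape by replicate) with mean and SD (bars, n = 3) of the 9 proteasome genes whose sickle (red) and control (blue) values did not overlap; every panel spans 1 log2 unit. Psme3 and Psmc1 are higher in sickle, and Psmb6, Psma2, Psmd11, Psmd12, Psma1, Psmg2 and Psmg1 are lower, with the widest separation in Psme3.

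Of the 2 genes set apart by role, Psmc3ip had 6.06, 6.14 and 5.95 in sickle and 5.72, 6.13 and 5.83 in control ventricles, an overlapping difference of 0.16 ± 0.13. Psme3ip1, whose protein binds that of Psme3 in the nucleus, had 8.67, 8.33 and 8.42 in sickle and 8.65, 8.73 and 8.59 in control ventricles, a difference of -0.19 ± 0.12. Its groups overlapped and it did not share the direction of Psme3.

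Genes that work with the proteasome also showed small differences. Of 19 measured partners and cofactors, 0 passed by limma, 1 had an unadjusted p under 0.05, and the median difference was -0.02. Over all genes, 0.181% passed and 8.69% had such an unadjusted p, so these counts do not set a list this short apart. The gene with an unadjusted p under 0.05 was Sem1, a small lid subunit outside the Psm naming. It had 10.42, 10.14 and 10.39 in sickle, against 10.53, 10.60 and 10.63 in control ventricles. All sickle values were lower, at a difference of -0.27 ± 0.11 (limma adjusted p = 0.564). Pomp, which matures the beta rings during assembly, had 9.07, 8.96 and 8.98 in sickle, against 9.13, 9.26 and 9.18 in control ventricles, again without overlap (-0.19 ± 0.09, limma adjusted p = 0.602). Txnl1, a thioredoxin-like protein on the regulatory particle, differed by -0.20 ± 0.09 and Ubqln4, a ubiquilin, by -0.14 ± 0.10.

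Of 12 genes in the transcriptional control of proteasome genes, 0 passed by limma and 0 had an unadjusted p under 0.05. Over all genes, 0.181% passed and 8.69% had such an unadjusted p, so counts of 0 do not set a list this short apart. Nfe2l1, the factor that raises proteasome genes when the protease is short, had 10.02, 10.09 and 10.06 in sickle, against 10.29, 10.30 and 10.14 in control ventricles, a difference of -0.19 ± 0.09 without overlap (limma adjusted p = 0.606). Its small Maf partners Maff (0.37 ± 0.17) and Mafg (0.14 ± 0.10) had positive differences, and Nfyc, a subunit of the factor that binds CCAAT boxes, differed by -0.15 ± 0.12. Without sickle replicate 3 these differences were 0.20 for Maff, 0.07 for Mafg and -0.04 for Nfyc.

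Of 11 measured ubiquitin-activating and ubiquitin-conjugating enzymes, 0 passed by limma and 0 had an unadjusted p under 0.05. Over all genes, 0.181% and 8.69% did, so counts of 0 do not set a list this short apart. Where 51.6% of all genes had a difference below 0, all 11 of these enzymes did (median -0.10). Set against the control mean, their median stood at -0.03, 0.03 and -0.18 in sickle arrays 1, 2 and 3, and without sickle replicate 3 the median difference was 0.01, with 5 of 11 below 0. Those with the smallest p were the conjugating enzymes Ube2a (-0.15 ± 0.10), Cdc34 (-0.18 ± 0.14, and -0.03 without sickle replicate 3) and Ube2d2a (-0.10 ± 0.09) and the activating enzyme Uba6 (-0.10 ± 0.09). Of 15 heart and muscle ubiquitin ligases, 0 passed by limma and 0 had an unadjusted p under 0.05, where 0.181% and 8.69% of all genes did. The ligases had a median difference of -0.05, which was 0.02 without sickle replicate 3. Nedd4l (-0.20 ± 0.09), Trim54, a muscle-specific ligase (-0.19 ± 0.10), and Fbxo21 (-0.13 ± 0.09) did not overlap between groups, and Traf6 (-0.12 ± 0.10) did.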

How the data were processed

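Ventricular RNA of 3 sickle and 3 control mice was hybridised to 1 array per mouse. The deposited values are on the log2 scale, after RMA by the authors per the submitters' processing notes (its version and settings, scan dates and batches: not given in the sources used here). Of 25293 rows, 22030 carried exactly 1 symbol in the platform annotation, 685 several and 2578 none. The brightest row stood for a gene, which left 21506 genes with no filter on dim genes. Limma 3.58.1 in R 4.3.3 (lmFit and eBayes, two-sided, group as the only term, 4 residual and 3.61 prior degrees of freedom) was run on all of them, with Benjamini-Hochberg adjustment at 0.05. A run on simulated data drew each gene independently, with no shared array effect. That run cannot show how the calls behave with an array like sickle replicate 3. Differences are sickle minus control, with moderated standard errors and unadjusted 95% intervals. The catalytic subunit ratios were tested by exact permutation of arrays. Per the labels, arrays of a group come from separate mice, and the number of arrays limits the precision.

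The members, classes and lists were chosen with earlier results of these data known. Named genes were called members, catalytic subunits and activators, the highest and lowest of each other class, the members without overlap (up to 6 each way), small classes, and from each partner list the called genes or the 4 with the smallest p. Irf1, Isg15, Irf8, Iigp1, Irgm2, Igtp, Cxcl9, Psma3, Psma5, Psma6, Psmb1, Psmb4, Psmc2, Psmd1, Psmd2, Psmd9, Psmd14 and Psmg3 were added after their values were seen. Alternatives were an intensity trend in the variance, a filter on dim genes, requantiling, centring on array medians, array weights, a replicate block, other treatments of rows, no shared variance and leaving out each array. The deviations of same-numbered arrays from their group means correlated at 0.11, -0.05 and 0.05 for replicates 1, 2 and 3, so the numbers were not taken to pair mice. Figures were drawn with matplotlib 3.10.9.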

Additional observations from a re-analysis of the deposited data

How the results depend on the processing

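No proteasome gene passed the adjustment under any of the 15 alternatives run, and Psme3 kept a positive difference in all of them. The count over all 21506 genes, 39, was 12 with the replicate number as a replicate block, and 0 by the ordinary t statistic from the limma fit with no shared variance (1740 at an unadjusted p under 0.05), and it ranged from 4 to 36 with 1 array left out. At an unadjusted p under 0.05, the proteasome genes numbered 5 with an intensity trend (10.4%, against 9.31% of all genes), 4 with the filter on dim genes (9.09%, against 12.2%), 4 with median centring (8.33%, against 9.12%) and 7 with no shared variance (14.6%, against 8.09%), beside 1 in the fit reported. With 1 array left out they numbered 1 to 4. Psme3 was the 1 higher gene each time. Without sickle replicate 3 the log2 difference turned sign or changed in size by a factor of over 1.5 for 27 of the 48 proteasome genes. The same held for 8 of 27 genes named from the partner lists. This factor is a ratio of log2 differences, not a fold change in expression, and differences near 0 pass it easily. The partner genes were named mostly for a small p, so these counts cannot be compared, and the share over all genes was not counted. The limma fit with the replicate block changed no call of a proteasome gene (lowest adjusted p = 0.543).

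The alpha-ring median was -0.064 with the filter on dim genes, which removes Psma5, and -0.080 to -0.012 with 1 array left out. The number of differences below 0, 33 of 48, was 27 with array weights and 38 with median centring, which moved the median of all genes to -0.03. Differences near 0 turned sign. Psmb3 had -0.030 after a second quantile normalisation and -0.013 after median centring, which also gave Psmb11 -0.015. Array weights gave Psmb7 0.027, Psme1 0.0064 and Psmd10 -0.012. With 1 array left out, the ranges were -0.096 to 0.020 for Psmb8, -0.12 to 0.0097 for Psmb9, -0.062 to 0.21 for Psmb10, -0.072 to 0.038 for Psmb7, -0.014 to 0.092 for Psma7, -0.048 to 0.081 for Psmb3, -0.013 to 0.042 for Psmb11, -0.019 to 0.086 for Psmd10 and -0.25 to 0.064 for Psme1. The subunit ratios ranged from -0.071 to 0.10 for Psmb8 over Psmb5, from -0.037 to 0.080 for Psmb9 over Psmb6 and from -0.020 to 0.21 for Psmb10 over Psmb7. Except where fewer genes or arrays entered, the cause was not tested. The subunit ratios were not run with all rows as separate features. Dim rows such as those of Psma5, Psma8 and Psmb11 may understate a change.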
